A study of Danio rerio with 8 samples.

Results

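The genes described here encode the machinery that transcribes nuclear genes in the zebrafish embryo: the subunits of RNA polymerases I, II and III, the general transcription factors with TBP and its TAF partners, the Mediator complex, the Integrator complex, and factors that control elongation. They were chosen by gene name alone, as every row of the expression table with a single gene name that begins with polr1, polr2 or polr3, med, taf, supt, brd or ints plus a digit, gtf2, gtf3, tbp, ell, hexim, larp7, ctr9, paf1 or leo1. The rule found 135 of the 33843 rows, under 133 gene names, because gtf2h1 and med11 each had 2 rows. Another 3 rows in which such a name was joined to that of a neighbouring gene were left out by the rule, among them pdcd11,taf5 (63.4 FPKM in control and 70.2 in SU5402 embryos, not called) and POLR2M,lipca (4.04 and 6.52 FPKM, not called).

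Wild-type whole embryos raised at 28 °C were compared at the dome stage, a blastula stage soon after zygotic transcription starts. Treated embryos received 20 µM SU5402, an inhibitor of the kinase of fibroblast growth factor (FGF) receptors, from the 2-cell stage onward, and control embryos received the same volume of the solvent DMSO. RNA-seq was done on 2 samples per condition, and ATAC-seq samples of the same conditions were not analysed here. The labels do not say whether the replicates came from separate clutches. The authors' deposited table gives 1 FPKM (a fragment count scaled to transcript length and to library size) per condition, pooled over both samples, so the values below carry no replicate error. Of 5 FGF pathway genes found in that table, dusp6 (18.2 to 2.13 FPKM), etv4 (20.3 to 6.41 FPKM) and spry2 (3.52 to 0.508 FPKM) fell in SU5402 embryos. The other two, spry4 (2.92 and 0.125 FPKM, q = 0.0523) and il17rd (22.2 and 20.2 FPKM, q = 0.685), had no call in the authors' deposited table.

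RNA polymerase I makes the large ribosomal RNA, RNA polymerase II makes messenger RNA, and RNA polymerase III makes transfer RNA and other small RNAs. At RNA polymerase II promoters, TFIID (TBP with its TAFs) and the TFIIA, TFIIB, TFIIE, TFIIF and TFIIH factors assemble with the polymerase, and Mediator connects them to activators bound at enhancers. Early zebrafish development runs on maternal RNA and protein until the genome is activated, so transcripts of these factors at dome stage may be maternal, zygotic or both.

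Most of this machinery was measured at similar levels in both conditions. Of the 135 rows, 129 passed the authors' own filter for testing, and the other 6 were polr2m, polr3glb, med18, med30 and both rows of med11. In the authors' deposited table, 8 of the 129 were called at a q-value of at most 0.05, which is 6.2% of them, while 5.64% of all 12757 tested loci were called. Of these, 5 were higher in SU5402 embryos (3.88%, against 3.58% of all tested loci), namely taf13, polr2j, GTF2A2, hexim1 and polr2a. The 3 called lower (2.33%, against 2.06%) were polr3gla, gtf2h4 and med10. The share of transcription genes called in each direction was thus near that of the whole table. At such shares a group with few tested genes can lack any call, so no call does not show stability.

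The median log2 change of the 129 tested rows was 0.02, and that of all tested loci was 0.04. Of the 129, 67 had a log2 change above 0 and 62 below, and 60 lay above the median of all tested loci and 69 below it. A difference of at least 1.5-fold between conditions was seen in 16 of the 129 (12.4%), 8 in each direction, and in 20.4% of all tested loci. At a mean of at least 5 FPKM these shares were 11.3% and 15.0%. Of the 16, only 5 were called, and 3 of the 8 called genes (polr2a, hexim1 and GTF2A2) differed by less than 1.5-fold. The transcription genes were also more abundant than the typical tested locus: their median control level was 20.2 FPKM against 9.94 FPKM for all tested loci, and 87 of the 129 lay above the median level. All 8 called genes lay at or above percentile 63.8 of level.

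**Figure D1:**
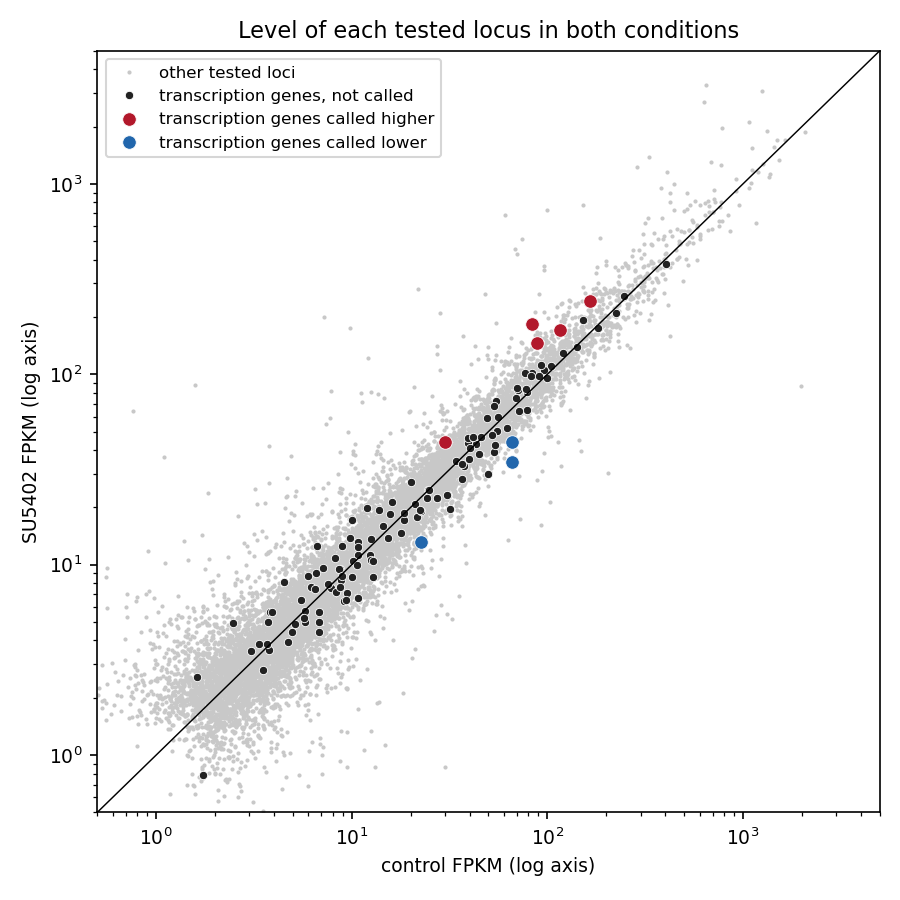
Control FPKM (horizontal, log axis) against SU5402 FPKM (vertical, log axis) for the tested loci, 1 point per locus, with the line of equal level; 109 tested loci outside 0.5 to 5000 FPKM are not shown. Most transcription genes follow the line, and the 8 called ones sit off it at control levels from 22.6 FPKM (gtf2h4) to 166 FPKM (polr2a).

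**Figure D2:**
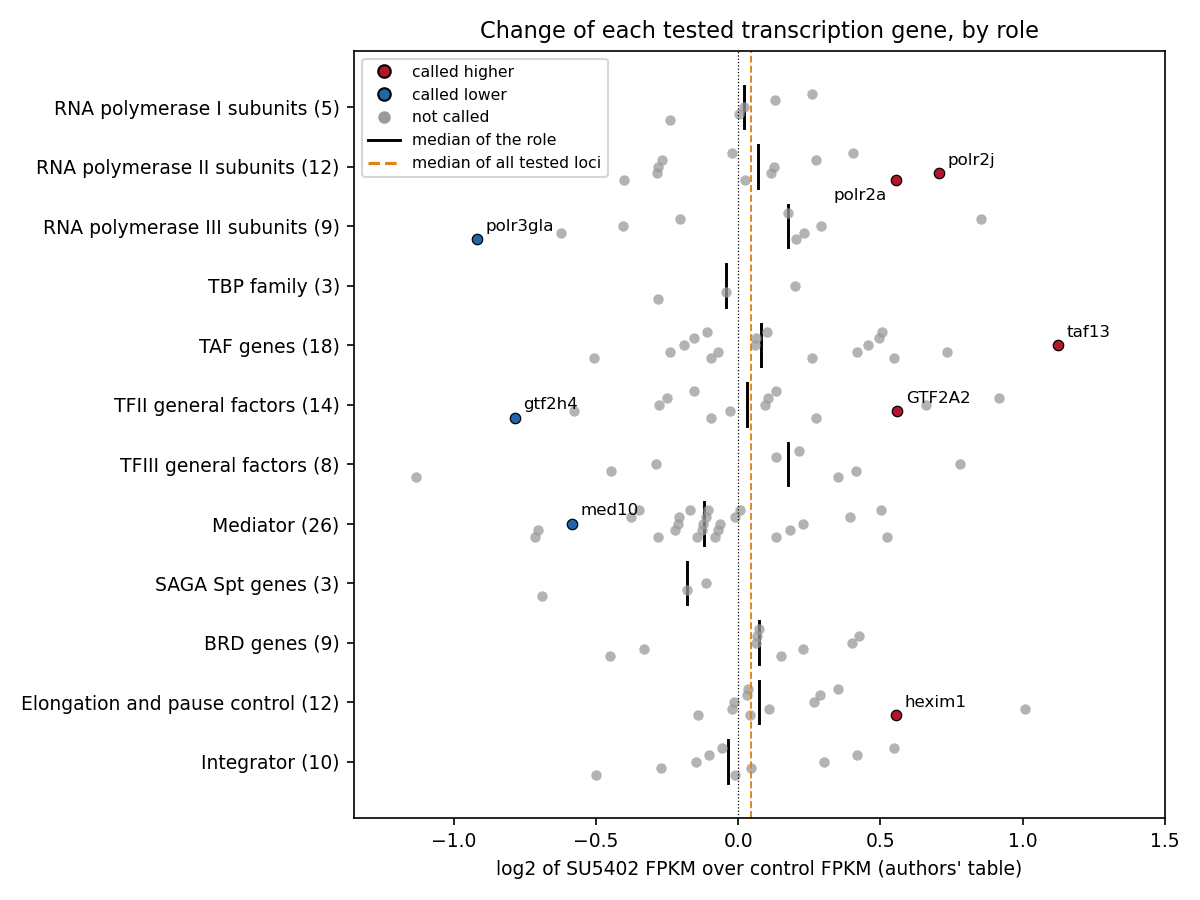
The log2 ratio of SU5402 FPKM over control FPKM for each of the 129 tested rows, grouped by role with the number tested in brackets; coloured points are called in the authors' table, black bars mark the median of each role and the dashed line marks the median of all tested loci (0.04). Points of most roles fall on both sides of 0, from taf13 at 1.13 to gtf3c3 at -1.13.

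RNA polymerase II had 2 of its 12 tested subunit genes called higher in SU5402 embryos (16.7%, against 3.58% of all tested loci). None was called lower. Neither of the 2 passed the stricter adjustment over all tested loci given below. The gene of the largest subunit, polr2a, which carries the catalytic site and the C-terminal repeat domain, had 166 FPKM in control and 244 FPKM in SU5402 embryos. It was the most abundant polymerase subunit transcript in both conditions, and it rose 1.47-fold (q = 0.00550 in the authors' deposited table). The transcript of polr2j, whose product pairs with that of polr2c in the assembly platform of the enzyme, had 88.9 FPKM in control and 145 FPKM in SU5402 embryos. It rose 1.63-fold (q = 0.00744 in the authors' deposited table). On the Zv9 build, polr2a lay at chromosome 12 from 23915538 to 23928925 and polr2j at chromosome 5 from 64522041 to 64527647. The region of polr2a also held an unnamed row with 6.63 and 8.14 FPKM, not called.

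The partners of these subunits in the enzyme did not pass the test. The second-largest subunit gene polr2b, which forms the active centre together with polr2a, had 27.3 FPKM in control and 22.4 in SU5402 embryos. The ratio of polr2a to polr2b levels was 6.08 in control and 10.85 in SU5402 embryos. Like the row of polr2a, that of polr2b shared its region with another row, where reads may be split. The polr2j partner polr2c had 21.5 and 17.8 FPKM, giving a polr2j to polr2c ratio of 4.14 and 8.13. These ratios describe pooled values, and their difference was not tested. Subunit genes of RNA polymerase II alone that were not called had 17.9 and 14.7 FPKM (polr2d), 96.0 and 105 FPKM (polr2gl, polr2g in current annotation) and 40.3 and 41.0 FPKM (polr2i). Measured levels for the subunits of one assembled enzyme thus spanned 20.2-fold in control from polr2k to polr2a. Both of these rows shared their region with another row, where reads may be split. Among the tested subunit rows that shared no region, control levels ran from 17.9 FPKM (polr2d) to 96.0 FPKM (polr2gl).

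The 5 subunits that all 3 polymerases share were not called in either direction. Their levels ran from 8.20 FPKM (polr2k) to 69.6 FPKM (POLR2L) in control and from 10.9 to 84.2 FPKM for the same genes in SU5402 embryos, with polr2eb (24.9 and 24.6 FPKM) and polr2f (69.4 and 75.1 FPKM) in between. POLR2H had the most negative log2 change within the role, -0.40 at 30.7 and 23.2 FPKM, with q = 0.306 in the authors' deposited table.

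RNA polymerase I showed no called change among its 5 tested genes (0%, against 5.64% of all tested loci). The largest subunit gene polr1a had 8.63 FPKM in control and 9.45 in SU5402 embryos. That of the second-largest, polr1b, had 5.48 and 6.56 FPKM. The gene polr1e, for a subunit specific to this enzyme, had 12.5 and 10.6 FPKM. Least different were the genes of the 2 subunits that RNA polymerases I and III share, polr1c with 24.6 FPKM in both conditions and polr1d with 46.0 and 46.6 FPKM. The log2 changes of the 5 ran from -0.24 to 0.26.

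RNA polymerase III had the only polymerase subunit gene called lower, 1 of its 9 tested genes (11.1%, against 2.06% of all tested loci). That gene, polr3gla, had 65.7 FPKM in control and 34.7 under SU5402, and had the highest control level of the tested polr3 genes. It fell 1.89-fold (q = 0.000383 in the authors' deposited table) and lay at chromosome 19 from 25031678 to 25041600 on Zv9. The family it belongs to encodes alternative forms of a single subunit of the initiation subcomplex, and in human and mouse cells POLR3G is linked to stem cells while POLR3GL is found in most cell types. The paralog polr3g had 4.51 and 8.15 FPKM, the highest log2 change within the role (0.86), and was not called (q = 0.156 in the authors' deposited table). The polr3gla to polr3g ratio was 14.6 in control and 4.26 in SU5402 embryos, a difference that was not tested. The third form, polr3glb, was listed at 0.823 and 0.681 FPKM and had not been tested by the authors. Reads may be split among such paralogs.

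The other 7 tested RNA polymerase III genes were not called. The largest subunit gene polr3a had 3.06 FPKM in control and 3.52 in SU5402 embryos. That of the second-largest, polr3b, had 6.84 and 4.44 FPKM. The core gene polr3k had 9.40 and 7.11 FPKM. Genes of the enzyme's own initiation subcomplexes had 10.8 and 13.2 FPKM (polr3c), 41.6 and 46.9 FPKM (polr3e) and 8.29 and 7.20 FPKM (polr3f). Values of both signs were thus found in each part of the enzyme.

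**Figure D3:**
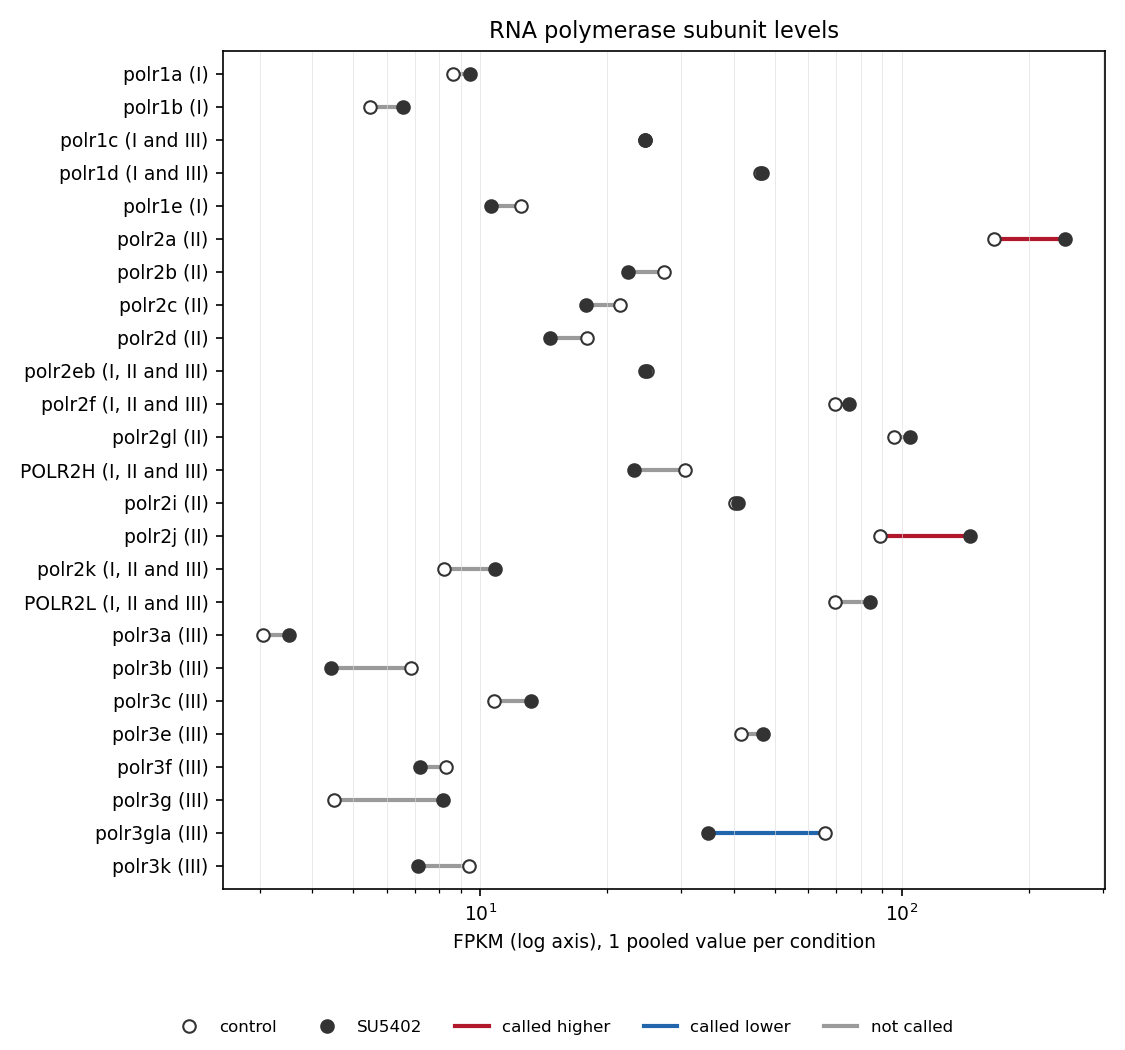
FPKM (log axis) of the RNA polymerase subunit genes described in the text, in control (open circle) and SU5402 embryos (filled circle), 1 pooled value per condition, with the enzyme it belongs to in brackets. The lines of polr2a (166 to 244 FPKM) and polr2j (88.9 to 145 FPKM) run upward and that of polr3gla (65.7 to 34.7 FPKM) downward, while the points of polr1c coincide at 24.6 FPKM.

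TBP takes part in the initiation complexes of all 3 polymerases. Its family showed no called change among 3 tested genes (0%, against 5.64% of all tested loci). TBP itself (tbp) had 180.4 FPKM in control and 175 in SU5402 embryos. Its paralog tbpl2, known in vertebrates for its role in the oocyte, had 10.8 and 12.4 FPKM, and the more distant tbpl1 had 27.1 and 22.3 FPKM. The order tbp, tbpl1, tbpl2 was the same in both conditions, with tbp 16.7-fold above tbpl2 in control and 14.1-fold above it in SU5402 embryos.

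Among 18 tested TAF genes, taf13 was called higher (5.56%, against 3.58% of all tested loci) and none was called lower. The product of taf13 pairs with that of taf11 through histone folds in TFIID. Its transcript had 83.9 FPKM in control and 183 FPKM in SU5402 embryos, which made a rise of 2.18-fold (q = 0.000383 in the authors' deposited table). It was the largest change among the called genes and also passed a stricter adjustment over all tested loci. It lay at chromosome 23 from 20717389 to 20800504 on Zv9, in an assembled region shared with slc35c2 (26.4 and 23.2 FPKM, not called) and a 5S_rRNA row listed at 0 in both conditions. Its partner taf11 had 9.78 and 13.9 FPKM and was not called (q = 0.252 in the authors' deposited table).

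Of the 9 tested genes whose products belong to TFIID and not to SAGA, 8 had a log2 change above 0. These 8 also lay above the median of all tested loci. Of all tested loci, 54.4% had a log2 change above 0. The median of the 9 was 0.49, but taf13 was the only one called. Next to taf13 stood taf8 (12.0 FPKM in control and 20.0 in SU5402 embryos, q = 0.0765) and taf3 (8.89 and 12.5 FPKM, q = 0.0728 in the authors' deposited table). With the stricter adjustment over all tested loci, the values were 0.344 for taf8 and 0.338 for taf3. The TFIID scaffold gene taf1 had 6.55 and 8.996 FPKM, TAF4 had 5.95 and 8.68 FPKM and its paralog taf4b had 3.68 and 3.83 FPKM. The gene taf7, for a TAF1-binding subunit, had 55.6 and 59.6 FPKM, and the exception in sign was taf6 with 22.5 and 19.1 FPKM. Subunits that TFIID shares with the SAGA coactivator had no common direction, with 99.97 and 95.1 FPKM for taf9, 82.0 and 98.3 FPKM for taf10 and 22.2 and 19.4 FPKM for taf12. Over these 12 TFIID genes the median log2 change was 0.36 with 9 above 0, and over all 18 tested TAF genes it was 0.08 with 11 above 0. No test of the group as a whole was made.

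The remaining TAF genes act elsewhere and were not called. Those of the SL1 factor of RNA polymerase I had 16.0 and 21.3 FPKM (taf1a), 5.69 and 5.27 FPKM (taf1b) and 4.96 and 4.45 FPKM (TAF1C). The SAGA forms taf5l and taf6l had 7.57 and 7.91 FPKM and 9.30 and 6.55 FPKM. TAF15, an RNA-binding protein of the FET family, was the most abundant transcript of the whole set with 405 FPKM in control and 379 in SU5402 embryos (q = 0.715 in the authors' deposited table).

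Of 14 tested rows of the TFII general factors, 1 was called higher (7.14%) and 1 lower (7.14%). Of all tested loci, 3.58% were called higher and 2.06% lower. GTF2A2, the small subunit of TFIIA, which stabilises TBP on DNA, had 116 FPKM in control and 171 in SU5402 embryos. It rose 1.47-fold (q = 0.0187 in the authors' deposited table), while the large subunit gene gtf2a1 had 225 and 211 FPKM and was not called. The gene gtf2h4, for a core subunit of the promoter-opening and DNA repair factor TFIIH, had 22.6 and 13.1 FPKM. It fell 1.72-fold (q = 0.0401 in the authors' deposited table). On Zv9, GTF2A2 lay at chromosome 7 from 30688008 to 30692624 and gtf2h4 at chromosome 19 from 27802132 to 27820059.

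Other TFIIH core genes did not pass the test. They had 12.9 FPKM in control and 8.65 in SU5402 embryos for gtf2h2 (q = 0.133 in the authors' deposited table), 14.5 and 15.9 FPKM for gtf2h3 and 61.9 and 52.1 FPKM for gtf2h5. The 2 rows of gtf2h1 had 8.89 and 8.71 FPKM and 1.62 and 2.56 FPKM, so the gene's reads may be split between them. TFIIB (gtf2b), which positions the polymerase at the promoter, had 78.9 and 65.1 FPKM. The TFIIE genes had 90.6 and 97.5 FPKM (gtf2e1) and 92.4 and 112 FPKM (gtf2e2). In TFIIF, gtf2f1 had 78.0 and 83.2 FPKM, gtf2f2a had 71.2 and 63.9 FPKM, and the minor paralog gtf2f2b had 6.67 and 12.6 FPKM, the highest log2 change of the role (0.92, q = 0.110 in the authors' deposited table). All 3 TFIIF rows shared their region with another row of the table.

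The TFIII general factors, which recruit RNA polymerase III, had no call among 8 tested genes (0%, against 5.64% of all tested loci). TFIIIA, the 5S ribosomal RNA gene factor, has 2 genes here, gtf3ab with 152 and 194 FPKM and gtf3aa with 12.8 and 10.5 FPKM. The TFIIIC genes ranged in control from 1.73 FPKM (gtf3c3) to 12.5 FPKM (gtf3c5). Among them gtf3c6 had the highest log2 change (10.0 and 17.2 FPKM, q = 0.109) and GTF3C1 the most negative of those at 1 FPKM or more in both conditions (6.83 and 5.02 FPKM, q = 0.321 in the authors' deposited table). The gene gtf3c3, chosen after its values were seen, had the most negative log2 change of all 129 tested rows at 1.73 and 0.790 FPKM without a call (q = 0.266 in the authors' deposited table). With a pseudocount of 1 FPKM its log2 change was -0.61 in place of -1.13.

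Mediator had 1 of 26 tested subunit genes called lower in SU5402 embryos (3.85%, against 2.06% of all tested loci) and none called higher. The gene med10, for a subunit of the middle module, had 66.1 FPKM in control and 44.1 FPKM in SU5402 embryos. It fell by 0.59 on the log2 scale (q = 0.0363 in the authors' deposited table) and lay at chromosome 19 from 28455957 to 28459816 on Zv9. Just outside the threshold of the authors' q were med8 of the head module and med31 of the middle module. They had 49.5 and 30.1 FPKM (q = 0.0624) and 31.9 and 19.6 FPKM (q = 0.0648 in the authors' deposited table). With the stricter Benjamini-Hochberg adjustment over all tested loci, the values were 0.217 for med10, 0.310 for med8 and 0.313 for med31. The median log2 change of the 26 was -0.12. Values below 0 were found for 19 of the 26, and 20 lay below the median of all tested loci. Of all 12757 tested loci, 5816 had a log2 change below 0. Neither Mediator nor its modules were tested as a group.

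By module, as assigned here from the structure of the mammalian complex, the head had 4 of 5 tested genes below 0, the middle 5 of 9 and the tail 7 of 8. The differences in the tail were small: med25 (54.0 and 42.4 FPKM), med28 (36.7 and 28.2 FPKM) and med29 (5.78 and 4.99 FPKM) had the most negative log2 changes, and med15 had 18.6 and 18.7 FPKM. The tail genes med23 and med24, the former a contact of several activators, had 10.7 and 9.94 FPKM and 36.7 and 33.7 FPKM. None of the 8 was called.

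The scaffold gene med14, which joins the modules, had 51.9 FPKM in control and 48.0 in SU5402 embryos. In the separable kinase module, med12, which activates the kinase, had 39.5 and 46.3 FPKM, and the linker genes med13a and med13b had 9.97 and 8.63 FPKM and 6.83 and 5.62 FPKM. The nuclear receptor contact med1 was among the least abundant, with 3.38 and 3.83 FPKM. The most abundant was med19a with 77.0 and 101 FPKM, 19.6-fold above its paralog med19b in control (3.93 and 5.64 FPKM), and both had positive log2 changes without a call. The row of med19b shared its region with another row, where reads may be split. Among the genes not tested, med18 was listed at 3.50 and 1.01 FPKM, med30 at 0.196 and 0.606 FPKM and the rows of med11 at under 1 FPKM in both conditions.

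**Figure D4:**
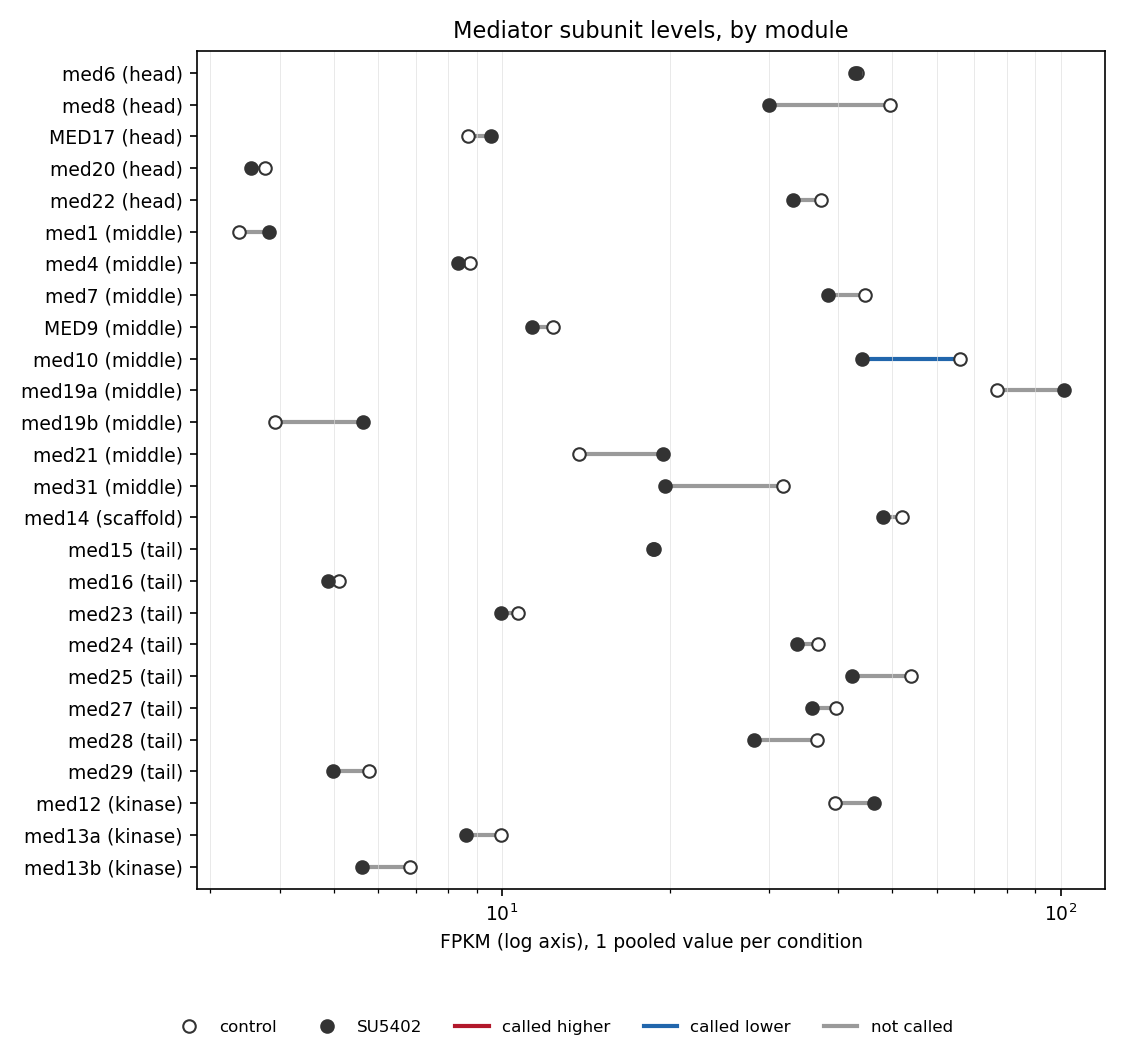
FPKM (log axis) of each tested Mediator subunit gene in control (open circle) and SU5402 embryos (filled circle), 1 pooled value per condition, ordered by module. The line of med10 (66.1 to 44.1 FPKM) is the 1 called change, med8 and med31 run in the same direction without a call, and med19a is the most abundant at 77.0 and 101 FPKM.

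Of 12 tested genes of elongation and pause control, hexim1 was called higher (8.33%, against 3.58% of all tested loci) and none lower. HEXIM1 binds the 7SK RNA and inhibits P-TEFb, the kinase that releases paused RNA polymerase II. Its transcript had 30.0 FPKM in control and 44.1 FPKM in SU5402 embryos, a rise of 1.47-fold (q = 0.0369 in the authors' deposited table), and lay at chromosome 12 from 16412072 to 16413832 on Zv9. The gene larp7, for the protein that holds the 7SK RNA, had 119.9 and 129 FPKM and was not called. P-TEFb itself is outside the name rule: its kinase gene cdk9 had 78.3 and 84.2 FPKM and its cyclin gene ccnt1 had 10.7 and 11.1 FPKM, neither called. The cyclin gene ccnt2b rose 1.37-fold from 146 to 199.8 FPKM (q = 0.0334 in the authors' deposited table). Its paralog ccnt2a had 14.5 and 13.3 FPKM and was not called (q = 0.730 in the authors' deposited table).

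The other elongation genes stayed without a call. The pausing factor DSIF had 141 and 139 FPKM for supt4h1 and 55.2 and 50.1 FPKM for supt5h. The histone chaperone genes supt6h and supt16h had 78.5 and 80.8 FPKM and 78.8 and 80.8 FPKM, among the closest pairs of values. In the PAF1 complex, which travels with the polymerase, ctr9 had 21.1 and 20.9 FPKM, leo1 had 49.1 and 59.1 FPKM, paf1 had 83.6 and 102 FPKM, and rtf1, a partner outside the name rule, had 116 and 144 FPKM. Of the ELL elongation factors, ell had 34.1 and 34.8 FPKM and ell2 had 53.2 and 67.8 FPKM. ELL3 had 2.46 and 4.96 FPKM, a 2.01-fold difference that was not called (q = 0.332 in the authors' deposited table).

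No BRD gene was called among 9 tested (0%, against 5.64% of all tested loci). Genes of the BET group, whose products bind acetylated histones, included brd3a with 247 FPKM in control and 258 in SU5402 embryos, the most abundant of the role. Its paralog brd3b had 39.3 and 43.7 FPKM. The pair brd2a and brd2b had 104 and 109.95 FPKM and 10.7 and 11.2 FPKM, so that brd2a was 9.74-fold above brd2b in control and 9.78-fold above it in SU5402 embryos. These BET genes differed between conditions by at most 1.11-fold. Bromodomain genes of chromatin remodelling and acetylation complexes had values of both signs, with 20.2 and 27.1 FPKM for brd9, 71.0 and 83.2 FPKM for brd7, 53.6 and 39.2 FPKM for brd8 and 3.54 and 2.81 FPKM for brd1.

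The 3 SAGA genes of the supt name had log2 changes below 0 without a call (0% called, against 5.64% of all tested loci). The largest difference was that of supt7l (10.8 FPKM in control and 6.66 in SU5402 embryos, q = 0.0829 in the authors' deposited table). The other two were supt3h with 24.3 and 22.4 FPKM and supt20 with 8.70 and 7.67 FPKM.

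Integrator cleaves small nuclear RNA precursors and ends transcription of paused polymerase. None of its 10 tested subunit genes was called (0%, against 5.64% of all tested loci). Its transcripts were low beside the whole set, from 3.73 FPKM (ints10) to 18.5 FPKM (ints3) in control. Their median control level was 7.02 FPKM, against 20.2 FPKM for the 129 tested rows and 9.94 FPKM for all tested loci. The highest log2 change was that of ints8 (3.84 and 5.62 FPKM, q = 0.209) and the most negative that of ints2 (9.09 and 6.42 FPKM, q = 0.255 in the authors' deposited table). The most abundant, ints3, had 18.5 and 17.2 FPKM, and the group's median log2 change was -0.04.

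**Figure D5:**
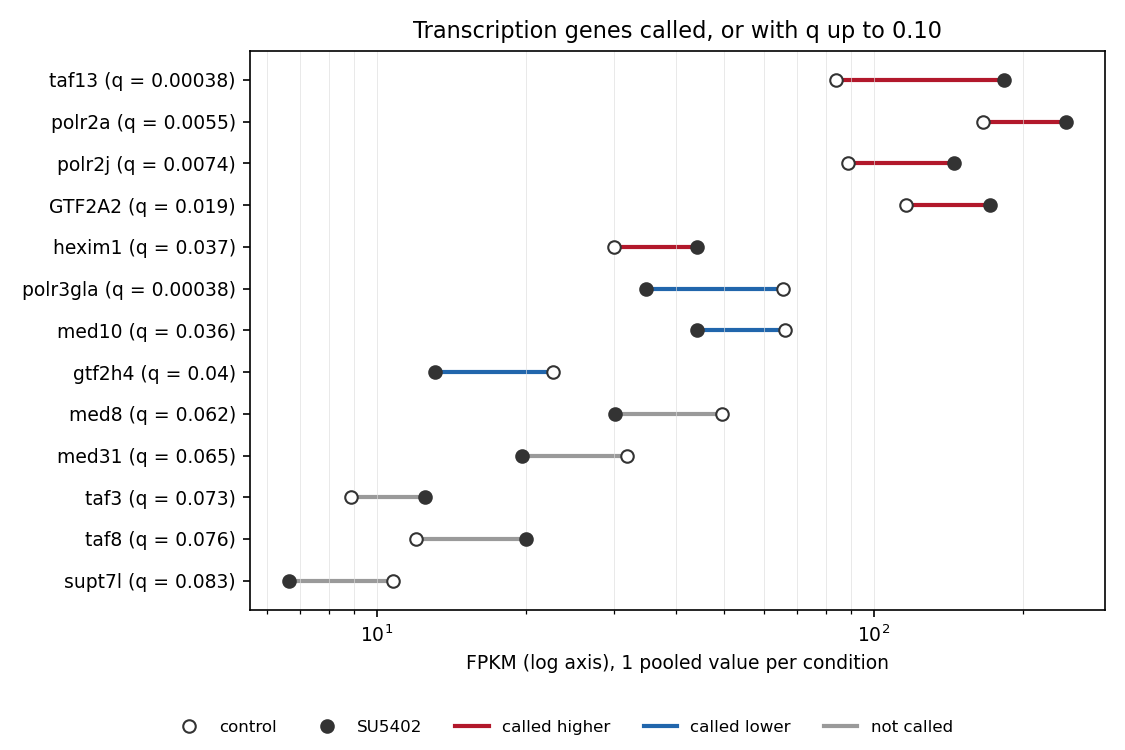
FPKM (log axis) in control (open circle) and SU5402 embryos (filled circle), 1 pooled value per condition, of the 8 called transcription genes and of uncalled ones with a q-value above 0.05 and up to 0.10. The 5 called higher run from hexim1 (30.0 to 44.1 FPKM) to polr2a (166 to 244 FPKM), and the uncalled genes shown are taf3 and taf8 with more FPKM in SU5402 embryos and med8, med31 and supt7l with less.

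Partner genes of these complexes that the names do not reach were taken from a list of 79 names, of which 65 were found in the table and 60 rows had been tested. Of these, 2 were called in the authors' deposited table (3.33%, against 5.64% of all tested loci), both higher: ccnt2b and the cyclin L gene ccnl1a, a regulator of splicing kinases, which rose 1.45-fold from 58.0 to 83.8 FPKM (q = 0.0243). Of the 60, 42 (70.0%) had a log2 change above 0 and the median was 0.16, against 54.4% and 0.04 for all tested loci, and 41 of the 60 lay above the latter median. The list was drawn up with earlier results of these data known, and it was not tested as a group. The TFIIH kinase gene cdk7 had 9.34 and 11.3 FPKM and was not called. The gene btaf1, for an ATPase that removes TBP from DNA, had 24.2 and 52.9 FPKM, the largest fold difference of the 60 tested rows. It was not called (q = 0.142 in the authors' deposited table) and was chosen after its values were seen. Below 0 were 18 of the 60, none of them called. The most negative log2 change was that of rrn3 (30.8 and 19.5 FPKM, q = 0.107 in the authors' deposited table), also chosen after its values were seen.

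The calls depend on how the p-values are adjusted. The authors' q-values are smaller than a Benjamini-Hochberg adjustment of their p-values over all tested loci, which called 1.65% of the loci. Under that adjustment, taf13 and polr3gla remained called, which left 1 gene higher (0.775%, against 0.996% of all tested loci) and 1 lower (0.775%, against 0.651%). The adjusted value was 0.00591 for both. It was 0.0577 for polr2a, 0.0742 for polr2j, 0.137 for GTF2A2, 0.217 for med10, 0.218 for hexim1 and 0.230 for gtf2h4, and neither partner gene passed.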

How the data were processed

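The values come from the authors' table comparing SU5402 with control embryos. TopHat2, Cufflinks, Cuffdiff and Picard were run with the Zv9 (danRer7) build, per the submitters' processing notes; their versions, settings and use of strand are not stated there. Per the file headers, the deposited values are 1 FPKM per condition, a log2 fold change, a test statistic (a score, not used), a p-value and a q-value; FPKM is relative to the rest of each library, so a shift in RNA content of the whole embryo cannot be seen. Depth per sample is unknown. The deposited log2 was within 0.001 of the FPKM ratio for all 129 tested rows. No deposited p-value was below 5e-05, a value held by 108 loci.

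Calls are the authors' (q at most 0.05). The second adjustment was Benjamini-Hochberg over the 12757 tested loci (scipy 1.17.1, checked on simulated data). No test was run across replicates, since none has its own value. Of 133 names, 130 were in the reference tables of current symbols; no sequence tables were used. Coordinates are 1-based (1 added to each start). A total of 32 of the 135 rows shared their assembled region with another row, where reads may be split.

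Genes named were all called ones, the most abundant, largest rise and largest fall of each role, and a fixed set; other genes are given with their levels to account for the set. The genes, roles and lists were chosen with earlier results of these data known. Results for 2 genes of the set are not reported here, and they enter only the counts, medians and unlabelled points of the plots.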

Additional observations from a re-analysis of the deposited data

How the results depend on the processing

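With the table-wide Benjamini-Hochberg adjustment, 1 of the transcription genes was called higher and 1 lower in place of 5 and 3. Called in all were 1.55% of the transcription genes and 1.65% of all tested loci. With it, 0 partner genes were called higher in place of 2. In the authors' deposited table, 18 transcription rows (14%), 8 partner rows (13.3%) and 11.1% of all tested loci held an unadjusted p under 0.05. At a q threshold of 0.01 the counts were 3 higher and 1 lower, with 0 partner genes higher. A q threshold of 0.10 gave 8 higher and 6 lower, with 4 partner genes higher and 2 lower. A q above 0.05 and up to 0.10 was held by 6 of the 129 tested transcription rows and by 446 of all 12757 tested loci. Without loci that share their region, 3 were called higher, since taf13 and polr2a share theirs, and 3 lower. A minimum mean of 5 FPKM changed none of these counts of transcription and partner genes. Of all 8907 tested loci at that level, 339 had a q above 0.05 and up to 0.10. At that level, with q at most 0.05, 6.96% of the transcription genes and 6.65% of all loci were called. Shares of all tested loci at a q threshold of 0.01 and without shared regions are not given here, so those counts have no background beside them.

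The median log2 change of the tested transcription genes was 0.02. It was 0.0075 at a mean of at least 5 FPKM, 0.0013 without shared regions and -0.025 when centred on the median of all tested loci. Pseudocounts of 1 and 0.1 FPKM left it at 0.02. Centring, a shift of 0.04, also reversed the sign of 7 tested transcription genes, none of them called: polr1c to -0.043, med15 to -0.037, polr1d to -0.025, polr2i to -0.020, ell to -0.012, supt16h to -0.0084 and supt6h to -0.0023.

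No paired analysis was possible because the table holds 1 pooled value per condition, and for the same reason leaving out each replicate was not run. Depth is unknown, so no counting interval limits low values such as those of ELL3 and gtf3c3.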
